A study of Mus musculus with 6 samples.

Results

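Integrins are receptors made of an alpha and a beta chain that hold cells to the matrix around them and to other cells. Inside the cell, talins and kindlins bind the beta tail and switch the receptor to its adhesive state, and integrin-linked kinase sits in the complex that ties it to actin. Integrins of white blood cells bind counter-receptors such as ICAM-1 and VCAM-1 on vessel walls and other cells, which lets these cells leave the blood and enter a tumour. The genes described here were chosen by name. They were all rows named Itga or Itgb plus a chain number or letter (26 integrin chains), 6 genes for talins, kindlins and integrin-linked kinase (Tln1, Tln2, Fermt1, Fermt2, Fermt3, Ilk), and the 4 ligand genes Icam1, Icam2, Vcam1 and Madcam1. This gave 36 of the 57462 genes in the files.

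RNA sequencing covered 6 tumours of an early tumour model made with HM1 cells, an ovarian cancer line of the mouse. The shST3GAL3 group held 3 tumours labelled as ST3GAL3 knockdown, and the shControl group held 3 tumours with a control hairpin, labelled wild type. ST3GAL3 is a sialyltransferase, an enzyme that caps sugar chains of glycoproteins with sialic acid, and integrins are glycoproteins. The mouse strain and age, the site of growth, the time of sampling and the number of hairpins or clones are not stated in the labels. Whether each tumour had its own mouse is not stated either, so the spread behind the p-values is that between samples and may be technical.

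Levels are TPM, a relative abundance corrected for gene length, so genes can be compared with each other within a tumour. Fold changes are shST3GAL3 over shControl on the log2(TPM + 1) scale, with their moderated standard error (SE), and a gene was called at an adjusted p under 0.05 in limma. St3gal3 itself (ENSMUSG00000028538) stood at 8.44, 6.77 and 7.49 TPM in shST3GAL3 1, 2 and 3, against 14.03, 13.84 and 13.79 TPM in shControl 1, 2 and 3. Its groups did not overlap, and its limma adjusted p was 0.348 (0.0337 with libraries weighted by their quality, which passes). Over all 14207 genes tested, 0 were called higher and 1 lower. Of the tumour cell markers, Krt8, Krt18 and Krt19 were between 384.42 and 1303.81 TPM in every tumour, while Epcam and Krt7 did not pass 1.17 TPM and Pax8 was listed at 0 in 3 tumours or read at most 1.65 TPM. The library shST3GAL3 1 stood apart, with a summed fibroblast marker level of 7395 TPM, against 2273 and 1568 TPM in shST3GAL3 2 and 3, and a range of 841 to 1357 TPM in the shControl tumours. Log2 fold changes and list medians of the integrins, their partners and the pathway genes that moved by over 1.5 times or changed sign without this tumour are given with and without it.

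Of the 36 genes, 31 passed the filter of at least 1 TPM in 3 libraries and were tested. None of the 31 was called by limma in either direction (0 higher and 0 lower), where the share called over all genes was 0% higher and 0.00704% lower. At an unadjusted p under 0.05, 10 of the 31 had higher and 0 had lower means in the shST3GAL3 tumours, against 9.19% and 3.78% of all genes. In 13 of the 31 every shST3GAL3 value lay above every shControl value, against 15.7% of all genes, and in 1 of them every value lay below, against 7.76%. The median log2 fold change was 0.31 over the 31 genes and 0.01 over all genes. Without shST3GAL3 1 the median was 0.18, and 9 of the 31 had higher means at an unadjusted p under 0.05, against 8.43% of all genes, and 0 had lower means, against 3.13%. The count of 10 was 5 without shControl 2 and 6 without shControl 3, against 4.47% and 4.85% of all genes. Of all genes at an unadjusted p under 0.05, 70.8% were higher, but 51.2% with median-ratio scaling and 47.8% with quantile normalization.

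The order of levels was led by the beta 1 chain. Averaged over all 6 tumours, Itgb1 stood at 357 TPM, followed by Itga6 at 195 TPM, Ilk at 168 TPM, Itgb7 at 167 TPM, Itga3 at 139 TPM and Tln1 at 122.9 TPM. The most abundant alpha chains, Itga6 and Itga3, were thus laminin-binding ones. The groups of Itgb7 overlapped, while those of Ilk were narrowly separate (log2 fold change 0.09, SE 0.065). The 5 genes that were not tested lay at the bottom of the order. Itga8, the alpha chain of the nephronectin receptor, was at most 1.90 TPM in any tumour, Itgb8 at most 0.40 TPM, Itgb6, an epithelial chain that activates TGF-beta, at most 0.23 TPM, the gut vessel ligand Madcam1 at most 0.24 TPM and the macrophage chain Itgad at most 0.10 TPM.

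The beta 2 integrins, which only white blood cells carry, had higher means in the shST3GAL3 tumours for each tested chain, and none passed over all genes. Itgb2 (ENSMUSG00000000290), the CD18 chain shared by all of them, stood at 156.46, 110.47 and 98.42 TPM in shST3GAL3 1, 2 and 3, against 79.84, 72.12 and 64.23 TPM in shControl 1, 2 and 3. Each shST3GAL3 tumour was above each shControl tumour. The log2 fold change of Itgb2 was 0.73 (SE 0.18, limma adjusted p = 0.380), and it was 0.53 without shST3GAL3 1.

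Of the alpha chains that pair with Itgb2, Itgax (CD11c, ENSMUSG00000030789), found on dendritic cells and macrophages, stood at 48.97, 54.19 and 39.88 TPM in shST3GAL3 1, 2 and 3, against 35.54, 34.13 and 25.65 TPM in shControl 1, 2 and 3. The groups did not overlap (log2 fold change 0.57, SE 0.16, limma adjusted p = 0.380), and shST3GAL3 2 was the highest tumour. Itgam (CD11b, ENSMUSG00000030786), the chain of the complement receptor Mac-1 on myeloid cells, stood at 85.34, 46.43 and 54.61 TPM in the shST3GAL3 tumours, against 43.24, 40.69 and 42.33 TPM in the shControl tumours. Here too the groups did not overlap, but shST3GAL3 1 was far above the others, and the log2 fold change of 0.50 (SE 0.21) became 0.25 without it. Itgal (CD11a, ENSMUSG00000030830), the alpha chain of LFA-1, with which T cells grip ICAM-1, stood at 27.65, 27.23 and 19.42 TPM in the shST3GAL3 tumours, against 20.40, 16.70 and 15.90 TPM in the shControl tumours. Its groups overlapped, since shST3GAL3 3 lay below shControl 1 (log2 fold change 0.46, SE 0.17).

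In whole tumours, more cells of a type and more RNA per cell cannot be told apart. The summed level of the pan-leukocyte markers (Ptprc, Laptm5, Coro1a, Cd53, Cd52) was 1144, 881 and 661 TPM in shST3GAL3 1, 2 and 3, against 631, 613 and 553 TPM in shControl 1, 2 and 3. All 5 of these markers had positive log2 fold changes, with a median of 0.51, and none was at 0 in any tumour. The macrophage markers summed to 1829, 1383.5 and 1027 TPM in the shST3GAL3 tumours, against 1021, 970 and 871 TPM in the shControl tumours, and all 7 had positive log2 fold changes. T cell markers, which bear on Itgal, summed to 127, 111 and 60.2 TPM in the shST3GAL3 tumours, against 67.9, 51.1 and 49.6 TPM in the shControl tumours. Neutrophil markers, which bear on Itgam, summed to 334, 60.4 and 108 TPM in the shST3GAL3 tumours, against 121, 85.8 and 129 TPM in the shControl tumours, and so overlapped. Of the 5 tested neutrophil markers, 3 had positive and 2 negative log2 fold changes. Dendritic cell markers, which bear on Itgax, summed to 34.6, 18.5 and 15.4 TPM in the shST3GAL3 tumours, against 12.6, 16.5 and 11.6 TPM in the shControl tumours. These sums overlapped too, and all 6 markers had positive log2 fold changes. The part of these markers in the result was not tested.

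Ratios within a tumour do not depend on how libraries are scaled, and 5 were compared between the groups. The ratio of Itgb2 to Itgb1 was 0.408, 0.309 and 0.278 in shST3GAL3 1, 2 and 3, against 0.224, 0.217 and 0.181 in shControl 1, 2 and 3. The groups were separate, with a log2 difference of 0.66 and an exact two-sided permutation p = 0.1, the smallest that 3 against 3 samples allow (0.25 adjusted over the 5 ratios). Against Ptprc, which encodes the pan-leukocyte protein CD45, Itgb2 stood at 3.28, 2.585 and 3.51 in the shST3GAL3 tumours and at 2.85, 2.59 and 2.26 in the shControl tumours, with overlap (log2 difference 0.28, exact permutation p = 0.3). The alpha chains kept no fixed direction against each other. Itgax to Itgam was 0.574, 1.17 and 0.730 in the shST3GAL3 tumours and 0.822, 0.839 and 0.606 in the shControl tumours (log2 difference 0.08, exact permutation p = 1), and Itgal to Itgam differed by -0.04 on the log2 scale (exact permutation p = 0.9). Both differences changed sign when single tumours were left out.

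Within the tumours the levels of Itgb2 and its alpha chains were close. Itgal, Itgam, Itgax and Itgad summed to 162, 128 and 114 TPM in shST3GAL3 1, 2 and 3, against 99.2, 91.5 and 83.9 TPM in shControl 1, 2 and 3. The ratio of Itgb2 to this sum was 0.966, 0.863 and 0.864 in the shST3GAL3 tumours and 0.805, 0.788 and 0.766 in the shControl tumours. This ratio was chosen after the values were seen and was not tested. Itgam made up 52.7%, 36.3% and 47.9% of the sum in the shST3GAL3 tumours and 43.6%, 44.5% and 50.5% in the shControl tumours, so it was the largest share in every tumour but shST3GAL3 2, where Itgax held 42.4%.

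**Figure D1:**
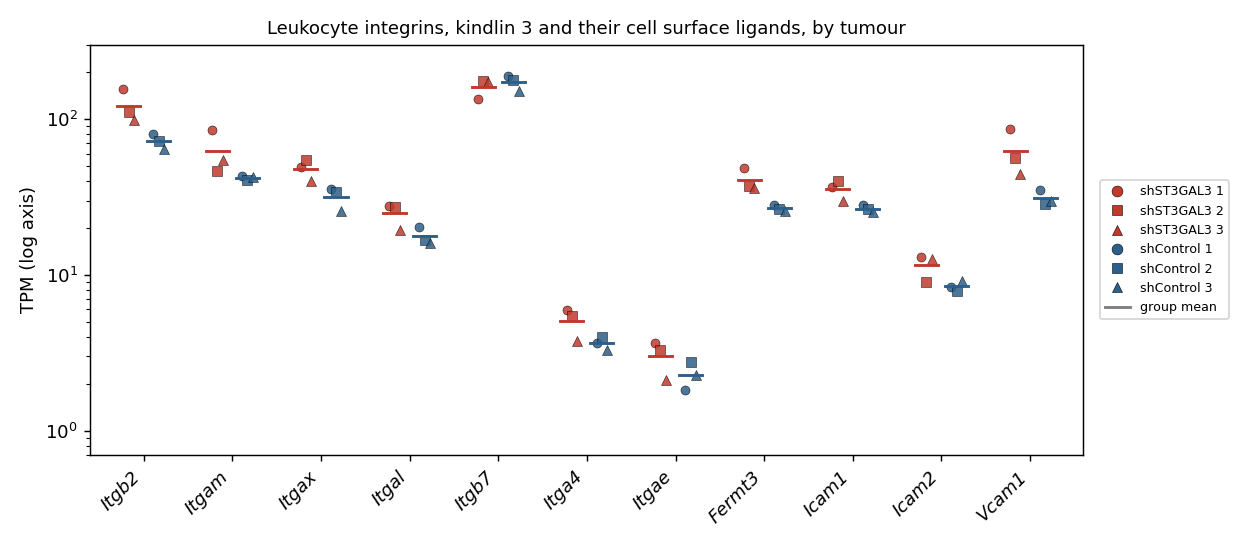
TPM on a log axis of leukocyte integrin chains, kindlin 3 (Fermt3) and the ICAM and VCAM ligand genes; each point is 1 tumour, red for shST3GAL3 and blue for shControl, and lines are group means (n = 3 each). Itgb2, Itgam, Itgax, Fermt3, Icam1 and Vcam1 have no overlap between the groups, while Itgb7 lies at 135.21 TPM or above in all tumours and overlaps.

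The beta 7 chain did not stand with the other leukocyte chains. Itgb7 (ENSMUSG00000001281) encodes the beta partner of alpha 4 in the gut-homing receptor and of alpha E in CD103, both carried by lymphocytes. It stood at 135.21, 175.76 and 173.59 TPM in shST3GAL3 1, 2 and 3, against 189.80, 179.10 and 150.62 TPM in shControl 1, 2 and 3. The groups overlapped, and shST3GAL3 1 was the lowest tumour (log2 fold change -0.10, SE 0.13, limma adjusted p = 0.729). Without that tumour the log2 fold change was 0.02, so no direction can be given.

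Both alpha partners of Itgb7 were scarce. Itga4 (CD49d), which also pairs with beta 1 to bind VCAM-1, stood at 5.91, 5.46 and 3.79 TPM in shST3GAL3 1, 2 and 3, against 3.64, 4.01 and 3.30 TPM in shControl 1, 2 and 3 (log2 fold change 0.37, SE 0.18). Itgae (CD103), a marker of tissue-resident T cells and some dendritic cells, stood at 3.68, 3.28 and 2.13 TPM in the shST3GAL3 tumours, against 1.82, 2.77 and 2.27 TPM in the shControl tumours (0.28, SE 0.21, and 0.17 without shST3GAL3 1). In both genes the groups overlapped, shST3GAL3 1 and 2 being the highest tumours. The ratio of Itgb7 to the sum of Itga4 and Itgae was 14.1, 20.1 and 29.3 in the shST3GAL3 tumours and 34.8, 26.4 and 27.0 in the shControl tumours, a ratio also chosen after the values were seen and not tested.

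Itgb7 was lowest in shST3GAL3 1, the tumour with the highest leukocyte marker sum. The ratio of Itgb7 to Itgb2 was 0.864, 1.59 and 1.76 in shST3GAL3 1, 2 and 3, against 2.38, 2.48 and 2.35 in shControl 1, 2 and 3. This ratio too was chosen after the values were seen and was not tested, and its denominator is itself a leukocyte gene. The ratio of Itgb7 to Itga6, also chosen then and not tested, went the other way without overlap. It was 1.18, 0.886 and 0.887 in shST3GAL3 1, 2 and 3, against 0.798, 0.844 and 0.719 in shControl 1, 2 and 3. Itga6 was itself lowest in shST3GAL3 1. Markers of B and plasma cells, which can carry beta 7, summed to 142, 14.2 and 1.14 TPM in the shST3GAL3 tumours, against 1.33, 2.08 and 0.48 TPM in the shControl tumours, so they were highest where Itgb7 was lowest. Which cells of the tumour held the Itgb7 transcripts was not tested. Over the leukocyte list as a whole, 6 of the 7 tested chains had positive log2 fold changes, with a median of 0.46, or 0.26 without shST3GAL3 1. Leaving out Itgb7 gave 0.48, or 0.32 without shST3GAL3 1 as well.

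**Figure D2:**
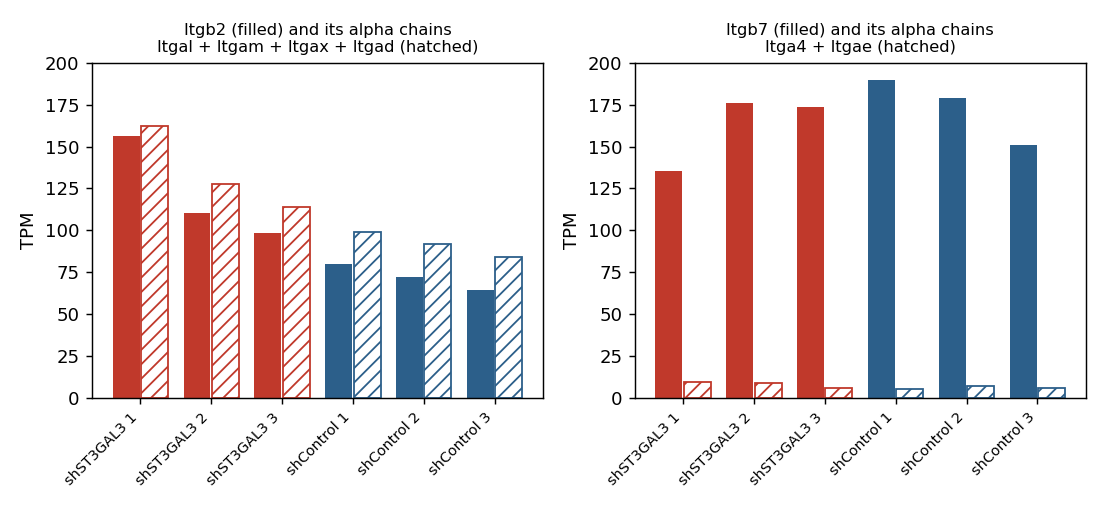
TPM of the beta chain (filled bars) and the summed TPM of its leukocyte alpha chains (hatched bars) in each tumour, for Itgb2 on the left and Itgb7 on the right, red for shST3GAL3 and blue for shControl. Itgb2 stays between 0.766 and 0.966 of its alpha chains, while Itgb7 stands at 14.1 to 34.8 times the sum of Itga4 and Itgae.

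Of the proteins that act on the integrin tail, kindlin 3 had the smallest p of all 31 tested genes. Fermt3 (ENSMUSG00000024965), the kindlin of blood cells, stood at 48.24, 37.34 and 35.94 TPM in shST3GAL3 1, 2 and 3, against 27.98, 26.42 and 25.83 TPM in shControl 1, 2 and 3. The shST3GAL3 tumours were all above the shControl tumours (log2 fold change 0.57, SE 0.12, limma adjusted p = 0.380), and the log2 fold change was 0.44 without shST3GAL3 1. Fermt2, the kindlin of other tissues, ranged over 31.03 to 51.12 TPM in the shST3GAL3 tumours and 28.43 to 34.59 TPM in the shControl tumours. Its highest value was that of shST3GAL3 1, and the log2 fold change of 0.23 (SE 0.20) was 0.01 without that tumour. The ratio of Fermt3 to Fermt2 was 0.944, 1.15 and 1.16 in shST3GAL3 1, 2 and 3, against 0.809, 0.929 and 0.812 in shControl 1, 2 and 3, without overlap (log2 difference 0.35, exact permutation p = 0.1, 0.25 adjusted over the 5 ratios).

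The widely expressed partners differed little. Tln1, the main talin, stood at 124.79, 120.89 and 133.88 TPM in shST3GAL3 1, 2 and 3, against 120.20, 120.91 and 116.98 TPM in shControl 1, 2 and 3 (log2 fold change 0.08, SE 0.07). Ilk stood at 174.68, 167.93 and 175.67 TPM in the shST3GAL3 tumours, against 165.93, 166.97 and 154.57 TPM in the shControl tumours (0.09, SE 0.065), and its groups were separate by less than 1 TPM. Tln2, the talin of muscle and brain, stood at 9.16, 6.87 and 5.47 TPM in the shST3GAL3 tumours, against 5.75, 5.45 and 5.23 TPM in the shControl tumours (0.31, SE 0.18, and 0.14 without shST3GAL3 1). The epithelial kindlin Fermt1 stood at 3.09, 2.82 and 3.15 TPM in the shST3GAL3 tumours, against 2.49, 2.06 and 3.05 TPM in the shControl tumours (0.19, SE 0.16), and both genes overlapped. All 6 genes of this list had positive log2 fold changes, with a median of 0.21 (0.12 without shST3GAL3 1, 0.11 with library weights, 0.13 with quantile normalization and 0.13 without shControl 2).

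The 3 tested ligands that endothelial and other cells offer to leukocyte integrins (Vcam1, Icam1 and Icam2) all had higher means in the shST3GAL3 tumours. Vcam1 (ENSMUSG00000027962), the ligand of alpha 4 beta 1, stood at 86.17, 56.52 and 44.53 TPM in shST3GAL3 1, 2 and 3, against 35.21, 28.52 and 29.60 TPM in shControl 1, 2 and 3. This was the largest ratio of means among the tested leukocyte chains, ligands and tail-binding genes, at 2.01, with no overlap (log2 fold change 0.93, SE 0.23, limma adjusted p = 0.380), and the log2 fold change was 0.68 without shST3GAL3 1. Icam1 (ENSMUSG00000037405), the cytokine-induced ligand of LFA-1 and Mac-1, stood at 36.72, 40.05 and 29.77 TPM in the shST3GAL3 tumours, against 28.15, 26.43 and 25.30 TPM in the shControl tumours. Its groups did not overlap either, and shST3GAL3 2 was the highest (0.39, SE 0.12, adjusted p = 0.380). Icam2, a ligand that resting endothelium carries, stood at 12.93, 9.04 and 12.69 TPM in the shST3GAL3 tumours, against 8.37, 7.83 and 9.14 TPM in the shControl tumours (0.40, SE 0.15). It overlapped through shST3GAL3 2 and shControl 3.

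Endothelial markers also had higher means in the shST3GAL3 tumours. The 10 markers summed to 303, 132 and 108 TPM in shST3GAL3 1, 2 and 3, against 74.7, 59.5 and 83.9 TPM in shControl 1, 2 and 3, all 10 had positive log2 fold changes with a median of 1.02, and none was at 0. For Vcam1 and the summed markers alike, shST3GAL3 1 was the highest tumour and shST3GAL3 2 the next. The other ligands did not follow that order, since Icam1 was highest in shST3GAL3 2 and Icam2 was lower in shST3GAL3 2 than in shST3GAL3 3. The part of endothelial content in the ligand result was not tested.

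Promoter windows from RefSeq (build GRCm38.p6, another than the build GRCm39 named for the files) were found for 25 of the 36 genes. The letters GAGGAA, the core bound by PU.1 and other Ets factors, and TTCNNNGAA, the core bound by STAT factors, were searched on both strands of the 250 bases before each start. GAGGAA was in 9 of the 28 windows of these genes (32.1%) and in 23.3% of all 32851 windows, and TTCNNNGAA was in 2 of them (7.14%) and in 7.02% of all. The 120 bases before the start are printed for those leukocyte chains, kindlin 3 and ligands whose groups did not overlap and that had a window, with Itgb7 for contrast. Capitals mark a match, as written or as its reverse complement, and the coordinates are on that build, in the order printed: chr7:128062520-128062639 (plus strand), chr7:128129430-128129549 (plus strand), chr19:7019470-7019589 (minus strand), chr9:21015820-21015939 (plus strand) and chr15:102231936-102232055 (minus strand).
Itgam: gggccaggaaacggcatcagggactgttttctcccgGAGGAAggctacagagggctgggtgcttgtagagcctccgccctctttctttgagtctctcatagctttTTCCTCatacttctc
Itgax: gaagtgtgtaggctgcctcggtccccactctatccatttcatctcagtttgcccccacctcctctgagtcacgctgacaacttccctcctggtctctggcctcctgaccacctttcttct
Fermt3: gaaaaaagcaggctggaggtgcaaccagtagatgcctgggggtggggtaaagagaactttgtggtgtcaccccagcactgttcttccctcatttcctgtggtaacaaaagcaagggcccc
Icam1: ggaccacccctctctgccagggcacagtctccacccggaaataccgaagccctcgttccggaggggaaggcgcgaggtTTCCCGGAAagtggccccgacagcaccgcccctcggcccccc
Itgb7: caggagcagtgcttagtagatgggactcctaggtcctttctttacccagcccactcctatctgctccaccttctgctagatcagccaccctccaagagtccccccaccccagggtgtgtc
Itgam held GAGGAA on both strands and Icam1 held TTCNNNGAA, while the 120 bases of Itgax, Fermt3 and Itgb7 held neither. The first bases after the start lay in a known transcript of the gene for each printed window but that of Icam1. A match is a description of the letters, not a site in use, and a window without one says nothing about the factor.

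Among the integrins that bind the matrix, chains of the laminin receptors and of the fibronectin and vitronectin receptors had log2 fold changes of opposite sign. Over the 14 tested matrix-binding chains, 9 had positive and 5 negative log2 fold changes, with a median of 0.23, and none was called. The median was 0.37 without shST3GAL3 2, 0.10 with quantile normalization and 0.08 with library weights. At an unadjusted p under 0.05 there were 3 with higher means (Itga1, Itga5 and Itga9) and 0 with lower means, against 9.19% and 3.78% of all genes. The count of 3 was 5 without shST3GAL3 3, with 1 lower, against 12.6% and 5.6% of all genes. It was 1 without shControl 1 and 0 without shControl 2, against 5.82% and 4.47% of all genes. The groups were separate in 7 of the 14, with the shST3GAL3 tumours above in 6, against 15.7% of all genes, and below in 1, Itga6, which is near the 7.76% of all genes.

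The 4 laminin-binding chains all had negative log2 fold changes, with a median of -0.26 (-0.09 without shST3GAL3 1, -0.44 without shST3GAL3 3 and -0.12 with library weights), though that of Itga7 turned when single tumours were left out. Itga6 (ENSMUSG00000027111), which pairs with beta 4 in the hemidesmosomes that anchor epithelia, stood at 114.43, 198.28 and 195.69 TPM in shST3GAL3 1, 2 and 3, against 237.79, 212.13 and 209.57 TPM in shControl 1, 2 and 3. The groups did not overlap, although the low value of shST3GAL3 1 made most of the difference (log2 fold change -0.41, SE 0.21, limma adjusted p = 0.418, and -0.16 without it). Its partner Itgb4 stood at 30.22, 49.77 and 58.44 TPM in the shST3GAL3 tumours, against 56.58, 57.01 and 51.29 TPM in the shControl tumours (-0.30, SE 0.23, and -0.03 without shST3GAL3 1). Itga3, the alpha chain of an epithelial laminin receptor, stood at 93.93, 134.29 and 158.68 TPM in the shST3GAL3 tumours, against 149.96, 151.33 and 143.73 TPM in the shControl tumours (-0.23, SE 0.18, and -0.02 without it). Both Itgb4 and Itga3 overlapped, with shST3GAL3 3 the highest and shST3GAL3 1 the lowest of all 6 tumours. Itga7, the laminin receptor chain of muscle, stood at 3.00, 2.23 and 1.72 TPM in the shST3GAL3 tumours, against 2.71, 1.79 and 2.47 TPM in the shControl tumours (-0.01, SE 0.21, and -0.15 without shST3GAL3 1).

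The keratin genes Krt8, Krt18 and Krt19, which mark epithelial tumour cells, also had lower means in the shST3GAL3 tumours and were lowest in shST3GAL3 1. In shST3GAL3 1, 2 and 3 the 4 chains summed to 242, 385 and 415 TPM and the 8 epithelial markers to 1768, 2687 and 3194 TPM. In shControl 1, 2 and 3 the chains summed to 447, 422 and 407 TPM and the markers to 3280, 3673.5 and 3194 TPM. Of the 5 markers tested, 3 had negative log2 fold changes and 2 (Cdh1 and Wt1) positive ones. How far the tumour cell share entered the result was not tested.

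The fibronectin and vitronectin receptor chains had positive log2 fold changes for all 6 tested members, with a median of 0.43 (0.22 without shST3GAL3 1 and 0.21 with library weights), though that of Itga2b turned without shST3GAL3 3. Itga5 (ENSMUSG00000000555), the alpha chain of the main fibronectin receptor, stood at 104.18, 45.65 and 55.15 TPM in shST3GAL3 1, 2 and 3, against 41.39, 34.53 and 36.28 TPM in shControl 1, 2 and 3. The groups did not overlap (log2 fold change 0.76, SE 0.29, limma adjusted p = 0.380), and the log2 fold change was 0.42 without shST3GAL3 1. Itga9, which binds tenascin C and VCAM-1, stood at 18.97, 12.67 and 13.78 TPM in the shST3GAL3 tumours, against 11.17, 7.43 and 9.94 TPM in the shControl tumours, again without overlap (0.62, SE 0.20, and 0.45 without shST3GAL3 1). It had the smallest p of the matrix-binding chains (limma adjusted p = 0.380).

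Of the beta chains that pair with alpha V, Itgb5 stood at 165.98, 101.05 and 105.74 TPM in shST3GAL3 1, 2 and 3, against 78.14, 88.22 and 96.38 TPM in shControl 1, 2 and 3 (log2 fold change 0.47, SE 0.20, and 0.24 without shST3GAL3 1). Itgb3, found on platelets, osteoclasts and growing vessels, stood at 25.51, 13.66 and 15.67 TPM in the shST3GAL3 tumours, against 13.20, 12.95 and 13.18 TPM in the shControl tumours (0.40, SE 0.22, and 0.15 without shST3GAL3 1). Itgav itself stood at 33.44, 28.80 and 30.43 TPM in the shST3GAL3 tumours, against 28.62, 28.08 and 28.54 TPM in the shControl tumours (0.11, SE 0.08, and 0.06 without shST3GAL3 1). In each of these chains the groups were separate, for Itgb3 and Itgav by less than 1 TPM, and shST3GAL3 1 was the highest tumour. The platelet chain Itga2b averaged 2.49 ± 1.05 TPM in shST3GAL3 and 1.96 ± 0.527 TPM in shControl tumours (SD, n = 3 each) and overlapped. Of the 7 platelet markers, Gp9, Gp1bb, Gp5, Gp6 and Treml1 were each at 0 in at least 1 tumour, and only Pf4 and Ppbp were tested. Pf4 lay between 93.79 and 277.71 TPM and Ppbp between 8.56 and 28.06 TPM, both highest in shST3GAL3 1. Both overlapped between the groups (log2 fold changes 0.47, SE 0.35, and 0.65, SE 0.36). The part of platelets in these results was not tested.

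The collagen-binding chains were among the scarcer ones, and 3 of the 4 had positive log2 fold changes. Itga11, the collagen receptor chain of fibroblasts, stood at 20.37, 2.89 and 2.16 TPM in shST3GAL3 1, 2 and 3, against 1.80, 0.86 and 2.53 TPM in shControl 1, 2 and 3. Its log2 fold change of 1.28 (SE 0.72) was 0.41 without shST3GAL3 1, and the groups overlapped. Itga1, carried by stromal cells and some T cells, stood at 10.45, 8.05 and 6.01 TPM in the shST3GAL3 tumours, against 5.07, 4.99 and 5.76 TPM in the shControl tumours, without overlap (0.52, SE 0.19, limma adjusted p = 0.380, and 0.35 without shST3GAL3 1). Itga2 stood at 4.82, 3.05 and 2.55 TPM in the shST3GAL3 tumours, against 2.72, 2.65 and 2.70 TPM in the shControl tumours (0.25, SE 0.21, and 0.04 without shST3GAL3 1). The cartilage chain Itga10 was lowest in shST3GAL3 1, at 1.11, 3.11 and 4.74 TPM in the shST3GAL3 tumours, against 3.41, 3.05 and 3.41 TPM in the shControl tumours (-0.22, SE 0.35, and 0.18 without that tumour).

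Fibroblast markers also had higher means in the shST3GAL3 tumours. All 10 had positive log2 fold changes, with a median of 1.59. By tumour, their median log2 difference from the shControl means was 2.76, 1.07 and 0.53 in shST3GAL3 1, 2 and 3. It was 0.02, -0.305 and 0.29 in shControl 1, 2 and 3. In shST3GAL3 1 both the marker sum and the values of Itga5, Itga9, Itgb3, Itgb5 and Itga11 were the highest of all 6 tumours. Itga10 was lowest there, and Itga5, Itga9, Itgb3 and Itgb5 were higher in shST3GAL3 3 than in shST3GAL3 2, while the marker sum was lower in shST3GAL3 3. The part of fibroblast content in these results was not tested.

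Itgb1, the beta chain that pairs with most matrix-binding alpha chains and with alpha 4, stood at 383.71, 357.92 and 354.19 TPM in shST3GAL3 1, 2 and 3, against 355.96, 332.69 and 355.52 TPM in shControl 1, 2 and 3. The groups overlapped, and the means were 365 ± 16.1 TPM in shST3GAL3 and 348 ± 13.3 TPM in shControl tumours (SD, n = 3 each; log2 fold change 0.07, SE 0.07, limma adjusted p = 0.637). Without shST3GAL3 1 the log2 fold change was 0.03.

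**Figure D3:**
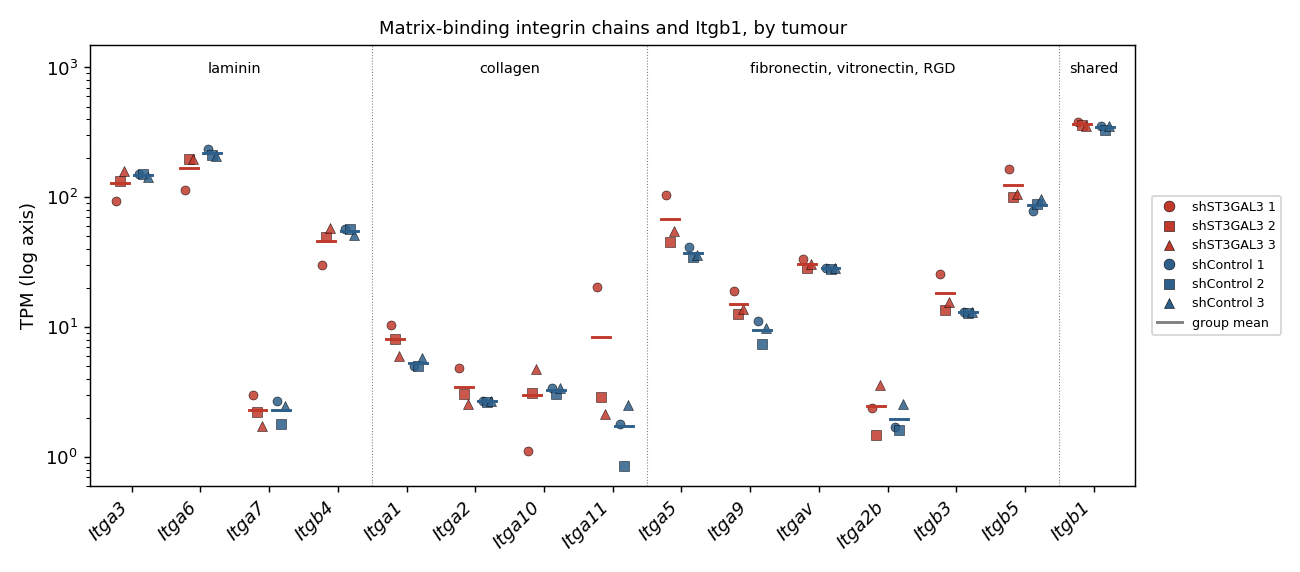
TPM on a log axis of the tested matrix-binding chains and Itgb1, grouped by the matrix they bind; each point is 1 tumour, red for shST3GAL3 and blue for shControl, and lines are group means (n = 3 each). The circle of shST3GAL3 1 is lowest for Itga3, Itga6 and Itgb4 and highest for Itga5, Itga9, Itgb3, Itgb5 and Itga11 (20.37 TPM).

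**Figure D4:**
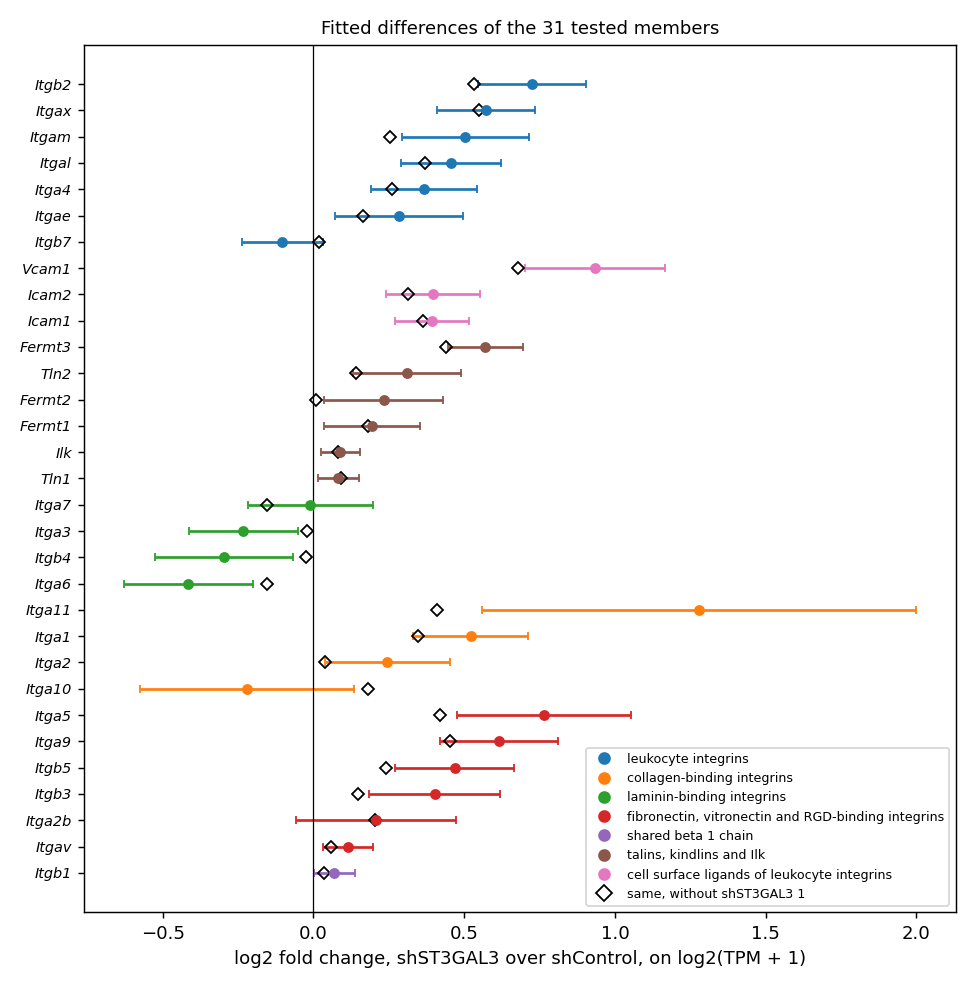
Fitted log2 fold change of each of the 31 tested genes, shST3GAL3 over shControl, with bars of 1 SE; colours give the role and open diamonds the value without shST3GAL3 1. Vcam1 (0.93), Itga5 (0.76) and Itgb2 (0.73) lie to the right of 0 with and without that tumour, and Itga6, Itgb4 and Itga3 lie to the left of it, close to 0 for Itgb4 and Itga3 without it.

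Other genes of the pathway gave 0 calls over all genes in limma. Of 12 regulators of integrin activation, 5 had higher and 0 lower means at an unadjusted p under 0.05, against 9.19% and 3.78% of all genes, with a median log2 fold change of 0.24. The count of 5 was 1 without shControl 1 or shControl 3, against 5.82% and 4.85% of all genes. It was 3 without shControl 2 or with median-ratio or quantile scaling, against 4.47%, 6.62% and 6.19% of all genes. Fyb, an adaptor of T and myeloid cells that links receptor signals to integrins, stood at 29.47, 23.97 and 22.72 TPM in shST3GAL3 1, 2 and 3, against 13.61, 18.17 and 16.55 TPM in shControl 1, 2 and 3 (0.63, SE 0.14, limma adjusted p = 0.380). Apbb1ip, which brings talin to the membrane downstream of the GTPase Rap1, stood at 26.30, 15.56 and 12.79 TPM in the shST3GAL3 tumours, against 10.53, 10.83 and 9.32 TPM in the shControl tumours (0.72, SE 0.25, and 0.43 without shST3GAL3 1). Sharpin, an inhibitor of integrin activation, stood at 66.11, 65.00 and 66.67 TPM in the shST3GAL3 tumours, against 51.48, 60.35 and 57.54 TPM in the shControl tumours (0.22, SE 0.08). In these 3 genes the groups did not overlap. The Rap1 genes themselves, Rap1a and Rap1b, had negative log2 fold changes (-0.12 and -0.11) and overlapped.

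Of 20 focal adhesion genes, 3 had higher and 0 lower means at an unadjusted p under 0.05, against 9.19% and 3.78% of all genes, and the median log2 fold change was 0.12 (0.08 with quantile normalization or library weights). The count of 3 was 4 without shST3GAL3 2, shST3GAL3 3 or shControl 1, against 7.62%, 12.6% and 5.82% of all genes. Without shST3GAL3 3 there was also 1 lower, against 5.6%. The higher count was 2 without shST3GAL3 1 or shControl 2, against 8.43% and 4.47%, and 0 without shControl 3, against 4.85%. The 3 were Flna, an actin cross-linker that binds beta tails (406 ± 22.6 TPM in shST3GAL3 and 348 ± 7.40 TPM in shControl tumours), Zyx, which collects at stretched adhesions (log2 fold change 0.47, SE 0.15, and 0.30 without shST3GAL3 1), and Parvg, the parvin of blood cells (0.53, SE 0.21). Vinculin (Vcl) and focal adhesion kinase (Ptk2) overlapped between the groups (-0.25, SE 0.13, and -0.06, SE 0.10). Without shST3GAL3 1 these values were -0.11 for Vcl and 0.03 for Ptk2.

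Of 19 tested matrix ligands, 6 had higher and 2 lower means at an unadjusted p under 0.05, against 9.19% and 3.78% of all genes, and the median was 0.07 (0.02 without shST3GAL3 1 and 0.18 without shST3GAL3 2). The counts were 2 higher and 2 lower without shControl 1, against 5.82% and 2.38% of all genes. They were 0 and 0 without shControl 2, against 4.47% and 2.05%, and 3 and 0 without shControl 3, against 4.85% and 1.64%. Col1a1, Col1a2 and Postn, among the 6, are fibroblast markers as well. Lama4, a laminin chain of vessel walls, stood at 37.86, 17.01 and 16.44 TPM in shST3GAL3 1, 2 and 3, against 10.48, 7.89 and 13.09 TPM in shControl 1, 2 and 3 (1.03, SE 0.34, and 0.65 without shST3GAL3 1). Npnt, which encodes nephronectin, stood at 18.07, 35.44 and 41.69 TPM in the shST3GAL3 tumours, against 50.23, 59.56 and 55.29 TPM in the shControl tumours (-0.85, SE 0.29, and -0.50 without shST3GAL3 1), and for Edil3, a secreted ligand of alpha V integrins, the value was -0.56 (SE 0.19). The groups were separate for all 3 genes, with the shST3GAL3 tumours above for Lama4 and below for Npnt and Edil3. Fn1, fibronectin itself, stood at 1390 ± 181 TPM in shST3GAL3 and 1313 ± 43.3 TPM in shControl tumours (SD, n = 3 each; 0.07, SE 0.11, and -0.005 without shST3GAL3 1). Of 6 tested further ligands of leukocyte integrins, 2 had higher and 0 lower means at an unadjusted p under 0.05, against 9.19% and 3.78% of all genes. The count of 2 was 1 without shST3GAL3 2, shControl 1 or shControl 2, against 7.62%, 5.82% and 4.47% of all genes. It was 0 without shControl 3, against 4.85%. The 2 were C3, whose cleaved product binds Itgam and Itgax receptors, at 340.31, 134.09 and 85.31 TPM in the shST3GAL3 tumours, against 60.87, 65.28 and 55.70 TPM in the shControl tumours (1.37, SE 0.46, and 0.81 without shST3GAL3 1), and the junction gene Jam3 (1.07, SE 0.41, and 0.62 without it). The related Jam2 overlapped (0.50, SE 0.23).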

How the data were processed

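RNA sequencing of 6 tumours was used, grouped by their titles. The authors deposited TPM values per gene with 2 decimals, 57462 genes in each file, and each column sums to between 999999 and 1000001, which is how the unit was recognised. Named in the submitters' processing notes are fastp, HISAT and RSEM with the build GRCm39, without versions, annotation release or strand setting. TPM keeps no read number, so depth is unknown and precision rests on the replicates.

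Genes with at least 1 TPM in 3 libraries (14207) were fitted with limma 3.58.1 (R 4.3.3, mean-variance trend) on log2(TPM + 1), with the group alone and Benjamini-Hochberg adjustment at 0.05. A count test had been planned in case the files held counts. Ratios were compared by exact two-sided permutation tests (scipy 1.17.1). The procedure was tested on simulated data. Alternatives were pseudocounts of 0.1 and 0.5, other filters, 3 other scalings, library weights, the replicate number as a block and leaving out each library. The scaling without mitochondrial, ribosomal protein and immunoglobulin genes set the TPM total anew.

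The genes and lists were chosen with earlier results of these data known. Values by tumour are given for 16 preset genes and for up to 4 tested genes of each member list with the smallest p. The 3 genes with the smallest p stand for each pathway list. Pathway genes named beyond this rule (Fn1, Vcl, Ptk2, Rap1a, Rap1b, Col1a1, Col1a2, Postn) were chosen after their values were seen. The leukocyte median without Itgb7 was also added then. So were the ratios of Itgb7 and of Itgb2 to their alpha chains, and those of Itgb7 to Itgb2 and to Itga6. No coordinates were converted between builds.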

Additional observations from a re-analysis of the deposited data

How the results depend on the processing

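In each of the 15 alternatives run, 0 of the tested integrin and partner genes were called in either direction. Of the 31, 27 kept the sign of their log2 fold change in every alternative that tested them. Itga11 was not tested with at least 1 TPM in all 6 libraries, and so had 14 alternatives. The sign turned for Itgb7 (0.0006 with library weights, and -0.20 to 0.019 with 1 library left out, turning without shST3GAL3 1), Itga10 (-0.54 to 0.18, turning without shST3GAL3 1), Itga7 (-0.15 to 0.12, turning without shST3GAL3 3, shControl 1 or shControl 3) and Itga2b (-0.012 to 0.43, turning without shST3GAL3 3), so no direction can be given for these 4; the cause was not tested. Leaving out 1 library gave log2 differences of -0.21 to 0.30 for Itgax to Itgam and of -0.30 to 0.13 for Itgal to Itgam. The median of the leukocyte chains ran from 0.26 to 0.57 and that of the matrix-binding chains from 0.08 to 0.365.

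Over all genes, the count of 0 called higher was 1 with a pseudocount of 0.1 or 0.5 and 5 with library weights. The count of 1 called lower was 0 with at least 1 TPM in all 6 libraries, 3 with library weights and 0 to 2 when 1 library was left out. St3gal3 had a log2 fold change of -0.89 with library weights (adjusted p = 0.0337; 0.138 to 0.662 with 1 library left out). Of the genes at an unadjusted p under 0.05, 70.8% were higher, against 51.2% with median-ratio scaling and 47.8% with quantile normalization. Same-numbered tumours did not deviate together (correlations 0.0145, -0.0799 and 0.0402). Whether the numbers pair the tumours is not stated in the labels. These correlations cannot decide it, as a shared batch need not show in them. With the replicate number as a block, 0 integrin and partner genes were called, St3gal3 had an adjusted p of 0.332, and 1382 genes were higher and 566 lower at an unadjusted p under 0.05. Each group held 3 tumours and the depth is unknown, and which of these limits the results more was not tested.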
